A study of Mus musculus with 26 samples.

Results

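The genes described here are the nuclear genes of oxidative phosphorylation, as measured by RNA sequencing of mouse striatum in models of Huntington's disease. A gene was taken as a member when its listed symbol begins with Ndufa, Ndufb, Ndufc, Ndufs, Ndufv, Uqcr or Atp5, begins with Cox and a digit from 4 to 8, or is Sdha, Sdhb, Sdhc or Sdhd. Of 14833 genes listed in any of the 5 deposited tables, 88 met this rule, 42 in complex I, 4 in complex II, 8 in complex III, 18 in complex IV and 16 in complex V. The symbols also catch 9 genes that encode no subunit, among them the complex I assembly factors Ndufaf1 to Ndufaf4 and Cox4nb, a subunit of a membrane complex of the endoplasmic reticulum, which leaves 79 subunit genes. No table lists a mitochondrially encoded gene, so the subunits made inside the organelle were not analysed here.

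The study compared striatum of R6/1 mice, which carry a transgene with exon 1 of human huntingtin and an expanded CAG repeat, with wild-type striatum at 4 weeks and at 8 weeks of age, with 3 libraries in each group. It compared striatum of CHL2 mice, knock-in animals with an expanded CAG repeat in the mouse huntingtin gene, with wild type at 1 year, also with 3 libraries in each group. At 10 weeks, 4 libraries came from R6/1 mice given an adeno-associated virus (AAV) for the transcription factor Elk-1, 2 from R6/1 mice given the control AAV and 2 from wild-type mice given the control AAV, which the tables name mCherry. The labels do not give the promoter of the vectors, the cells they reached or the zygosity of the CHL2 mice. All groups are bulk striatum from flash-frozen tissue.

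Each deposited table holds 1 pooled FPKM (fragments mapped to a gene, scaled to transcript length and to the size of the library) per group and gene, so neither sequencing depth nor variation among libraries is known, and no SD or interval can be given. Calls are therefore the authors' own, a Cuffdiff q-value below 0.05, and changes given without a call are differences of log2(FPKM + 1) between pooled values. Markers of striatal projection neurons were present in every group, with summed levels of 1174 to 2309 FPKM in the R6/1 and CHL2 groups, against 2544 to 3370 FPKM in the wild-type groups.

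Oxidative phosphorylation passes electrons from NADH through complex I, or from succinate through complex II, to ubiquinone, and from there through complex III and cytochrome c to complex IV, which reduces oxygen. Complexes I, III and IV pump protons across the inner mitochondrial membrane, and complex V, the ATP synthase, uses the returning protons to make ATP. Neurons draw most of their ATP from this pathway, and striatal projection neurons are sensitive in animals to inhibitors of complex II.

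Levels spanned a wide range within each complex except complex II. At 8 weeks the 88 members together held 3.46% of the summed FPKM in R6/1 and 3.15% in wild type, rows of small RNAs left out. The highest level in wild type at that age was 748.4 FPKM for Cox4i1, the common isoform of complex IV subunit 4, with 741.1 FPKM in R6/1. Cox6a1, the common isoform of complex IV subunit 6A, had 679.7 FPKM in R6/1 and 664.7 FPKM in wild type. Atp5b, the catalytic beta subunit of the ATP synthase, had 736 FPKM in R6/1 and 663 FPKM in wild type. In complex I the highest were Ndufa4, at 364 FPKM in R6/1 and 374 FPKM in wild type, and Ndufa3, at 298.6 FPKM in R6/1 and 288.8 FPKM in wild type. Ndufa4 is kept here under its symbol, although its protein is now known as a part of complex IV. In complex III, Uqcrh, the hinge protein that helps cytochrome c bind, had 259.7 FPKM in R6/1 and 231.2 FPKM in wild type, and Uqcr10, a small accessory subunit, had 167 FPKM in R6/1 and 165 FPKM in wild type. Atp5g3, 1 of the genes for subunit c of the ATP synthase, was next below Atp5b, at 478.1 FPKM in R6/1 and 426.2 FPKM in wild type.

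**Figure D1:**
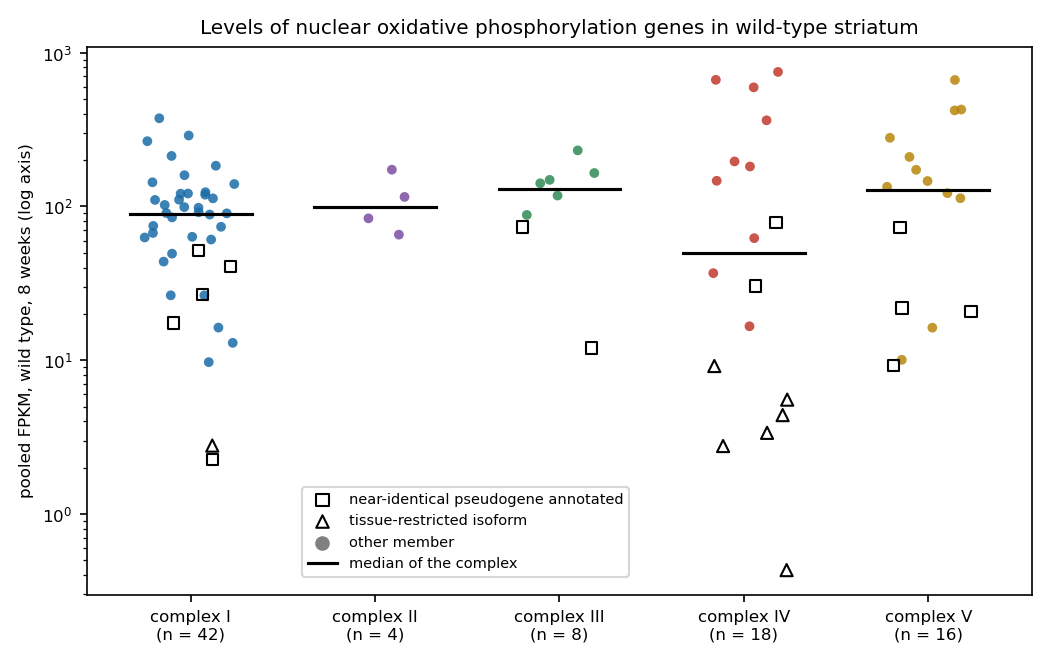
Pooled FPKM of each of the 88 members in wild-type striatum at 8 weeks (vertical log axis), grouped by complex; lines mark the median of a complex, squares members with a near-identical annotated pseudogene and triangles isoforms restricted to certain tissues. Medians were 89.3, 99.4, 129, 49.5 and 128 FPKM for complexes I to V, and no square reaches 100 FPKM.

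The 4 subunits of complex II lay closest together, from 65.5 FPKM for the membrane anchor Sdhd to 173 FPKM for the flavoprotein Sdha in wild type at 8 weeks, with the other anchor Sdhc at 83.6 FPKM and the iron-sulfur subunit Sdhb at 115 FPKM. The lowest members of complex III were Uqcrb, at 8.87 FPKM in R6/1 and 12.02 FPKM in wild type, and Uqcr11, at 73.0 FPKM in R6/1 and 73.5 FPKM in wild type. Those of complex V were Atp5h, at 10.2 FPKM in R6/1 and 9.21 FPKM in wild type, and Atp5s, at 11.8 FPKM in R6/1 and 10.1 FPKM in wild type. In complex IV the range in wild type ran from 0.432 FPKM for Cox7b2 to 748.4 FPKM for Cox4i1. Of the 88 members, 13 have an annotated pseudogene that shares at least 100 bases at 98% identity or more, so their reads may be split between copies and their levels are uncertain. These 13 had a median of 26.8 FPKM in wild type at 8 weeks, against 110 FPKM for the other 75. Ndufab1, the mitochondrial acyl carrier protein and a complex I subunit, is one of them and had 2.65 FPKM in R6/1 and 2.25 FPKM in wild type, the lowest level in complex I, with the tissue-restricted Ndufa4l2 next at 3.38 FPKM in R6/1 and 2.79 FPKM in wild type. The other members with such a pseudogene are Atp5f1, Atp5g1, Atp5h, Atp5l, Cox7a2l, Cox7c, Ndufa12, Ndufb4, Ndufs3, Ndufs5, Uqcr11 and Uqcrb.

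CHL2 striatum at 1 year was the comparison in which members passed the authors' test. The authors' deposited table called 3 of 88 members lower (3.41%) and 0 higher, against 3.65% of all 14402 rows called in either direction and 1.97% called lower. Rows of high level were called more often. Of 669 rows with a mean of at least 100 FPKM, a level that all 3 called members reach, 57 were called in either direction. Of these 669 rows, 620 are not members. The share of members called at that level was not above that of all such rows. Cox6a1 fell to 647.9 FPKM in CHL2, against 867.4 FPKM in wild type, a log2 fold change of -0.42 with q = 0.0178 in the authors' deposited table. Ndufs7, a core complex I subunit that carries the iron-sulfur cluster next to ubiquinone, fell to 119.7 FPKM in CHL2, against 155.1 FPKM in wild type (log2 change -0.37 and q = 0.0448 in the authors' deposited table). Uqcrq, a small accessory subunit of complex III, fell to 179.5 FPKM in CHL2, against 234.4 FPKM in wild type (log2 change -0.38 and q = 0.0486 in the authors' deposited table). Cox8a, the common isoform of the smallest complex IV subunit, stood just outside the threshold, at 598.7 FPKM in CHL2 and 759.9 FPKM in wild type (log2 change -0.34 and q = 0.0666 in the authors' deposited table). On mm9 as listed, Cox6a1 lies at chr5:115795662-115798964, Ndufs7 at chr10:79712196-79719537 and Uqcrq at chr11:53242449-53244333. None of these 3 members was called in another table, and their direction varied between tables. Cox6a1 had 675.0 FPKM in R6/1 and 733.0 FPKM in wild type at 4 weeks, and 1097 FPKM in control-AAV R6/1 and 1152 FPKM in control-AAV wild type. Ndufs7 had 107.9 FPKM in R6/1 and 121.1 FPKM in wild type at 4 weeks, 110.2 FPKM in R6/1 and 112.7 FPKM in wild type at 8 weeks, and 244.5 FPKM in control-AAV R6/1 and 217.4 FPKM in control-AAV wild type. Uqcrq had 159.7 FPKM in R6/1 and 182.5 FPKM in wild type at 4 weeks, 158.6 FPKM in R6/1 and 141.3 FPKM in wild type at 8 weeks, and 515.5 FPKM in control-AAV R6/1 and 494.3 FPKM in control-AAV wild type. With Elk-1, Ndufs7 had 262.9 FPKM in Elk-1-AAV R6/1 and 250.4 FPKM in control-AAV R6/1, and Uqcrq had 544.1 FPKM in Elk-1-AAV R6/1 and 527.8 FPKM in control-AAV R6/1. In bulk striatum, fewer cells of a type and less RNA per cell cannot be told apart.

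The called genes stood within a broad downward shift of the pooled values. Of the 88 members, 81 had lower pooled FPKM in CHL2 than in wild type (92.0%), against 49.5% of all rows, and the median difference of log2(FPKM + 1) was -0.20, a fold of 0.870. With both groups scaled to the same FPKM sum, 76 were lower and the median was -0.12, while that of all rows moved from 0.002 to 0.07. The median of the members was -0.11 with the median of rows of the same transcript length taken off. It was -0.07 with that of rows of the same length and level. At the unadjusted p of 0.05 the authors' deposited table has 28 members lower (31.8%) and 0 higher, against 6.52% and 6.75% of all rows. The shares of all rows are not matched for level or transcript length. Those 28 comprised 14 of 42 members of complex I, 2 of 8 of complex III, 9 of 18 of complex IV, 3 of 16 of complex V and 0 of 4 of complex II. Median differences were -0.20 for complex I, -0.13 for complex II, -0.22 for complex III, -0.29 for complex IV and -0.15 for complex V.

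**Figure D2:**
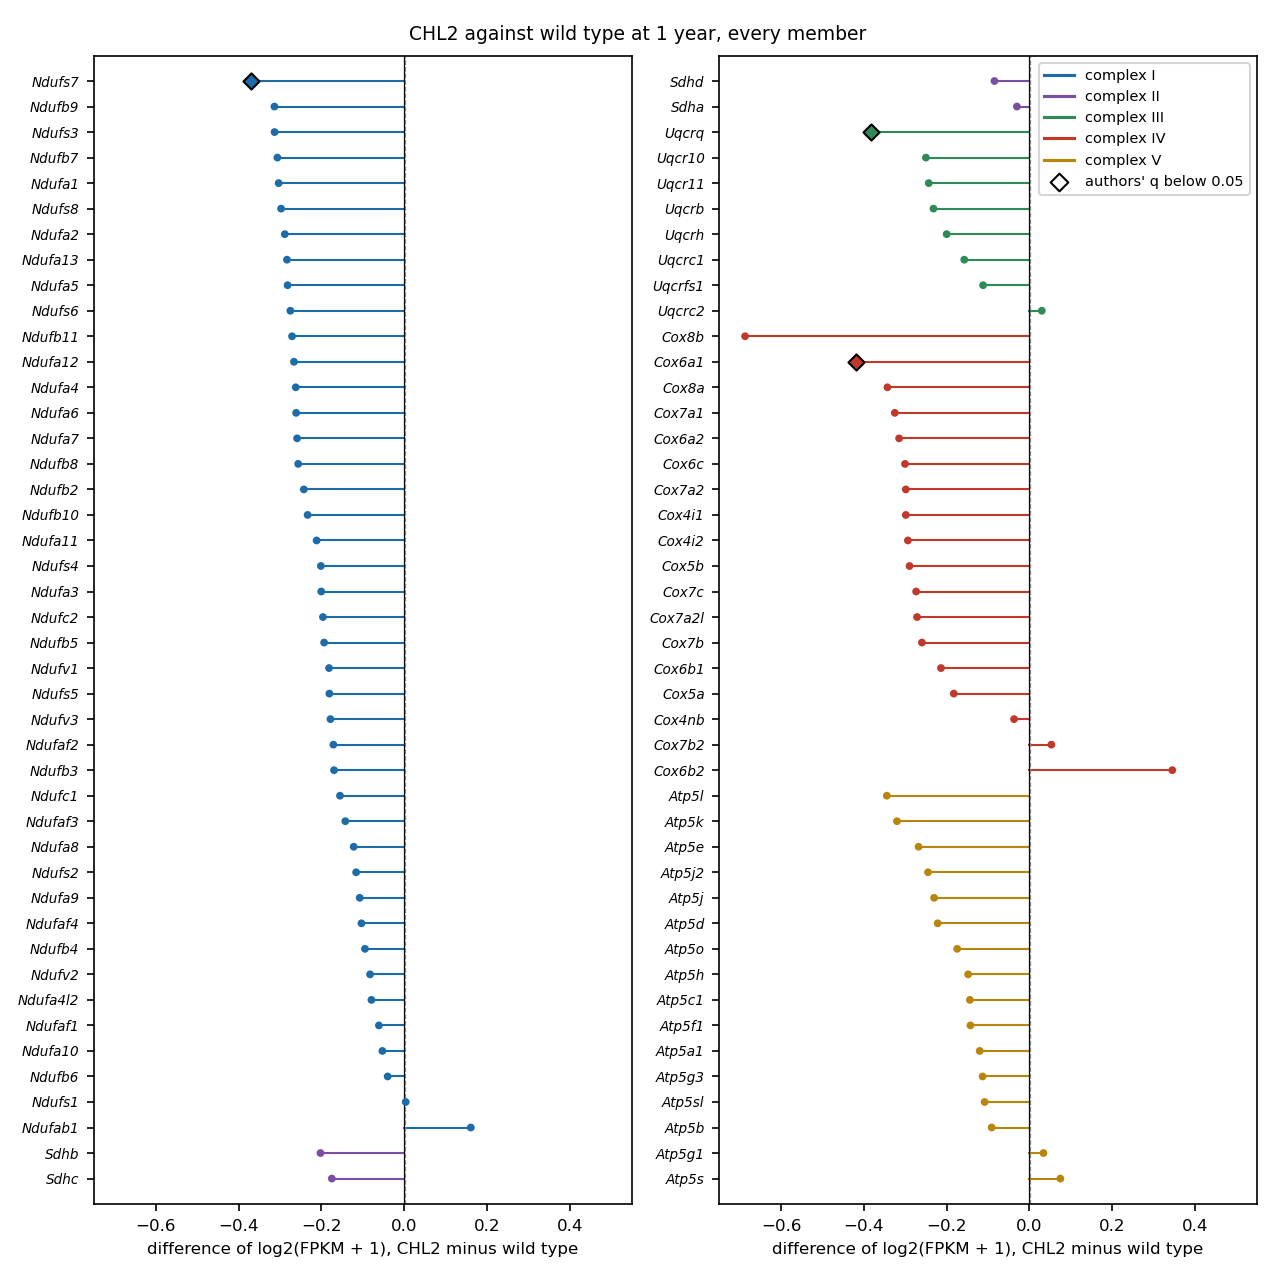
Difference of log2(FPKM + 1), CHL2 minus wild type at 1 year (horizontal axis), for each of the 88 members, sorted within complexes I to V; diamonds mark the 3 members with the authors' q below 0.05. Most points lie left of 0, and 7 members lie right of it.

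Within complex IV, the ubiquitous subunits had differences from -0.42 to -0.18 in CHL2, over levels from 36.8 FPKM for Cox7b to 796 FPKM for Cox4i1. Cox4i1 had 796.2 FPKM in CHL2 and 979.7 FPKM in wild type (q = 0.199 in the authors' deposited table). Cox7a2 had 168.3 FPKM in CHL2 and 207.3 FPKM in wild type, and Cox6c had 174.9 FPKM in CHL2 and 215.7 FPKM in wild type. Cox6b1 had 413.2 FPKM in CHL2 and 479.4 FPKM in wild type, a difference of -0.21. Cox5a, which had 223.3 FPKM in CHL2 and 253.7 FPKM in wild type, stood at -0.18. The 12 complex IV members that are no tissue-restricted isoform were all lower in CHL2, from -0.42 for Cox6a1 to -0.04 for Cox4nb, which is no subunit. In complex I, the 7 core subunits had a median of -0.18 and the 30 accessory subunits one of -0.22. Sdha had 196.7 FPKM in CHL2 and 200.9 FPKM in wild type, a log2 fold change of -0.03 in the authors' deposited table, while the iron-sulfur subunit Sdhb had 131.2 FPKM in CHL2 and 151.1 FPKM in wild type (-0.20 there). Atp5b had 725.8 FPKM in CHL2 and 773.4 FPKM in wild type. The 7 members higher in CHL2 were Atp5g1, Atp5s, Cox6b2, Cox7b2, Ndufab1, Ndufs1 and Uqcrc2, and none passed at the unadjusted p of 0.05. The highest of their differences were 0.35 for Cox6b2, 0.16 for Ndufab1, with 1.96 FPKM in CHL2 and 1.65 FPKM in wild type, and 0.07 for Atp5s, with 12.1 FPKM in CHL2 and 11.5 FPKM in wild type.

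Marker genes of several cell types moved in the same CHL2 pools. Of 11 projection neuron markers, 10 were called lower, with a summed level of 1622 FPKM in CHL2 and 3124 FPKM in wild type. Of 6 oligodendrocyte markers, 2 were called lower (summed level 3011 FPKM in CHL2, 4416 FPKM in wild type), and of 3 red cell markers 2 were called lower, Alas2 and Hbb-b1 (26.9 FPKM in CHL2, 59.6 FPKM in wild type). Of 6 hypothalamic markers, 4 were called higher (168.7 FPKM in CHL2, 64.9 FPKM in wild type), and of 4 thalamic markers 1 was called higher, Slc17a6 (34.6 FPKM in CHL2, 28.4 FPKM in wild type). No marker was called in the other lists, those of interneurons, astrocytes, microglia, endothelial cells, pericytes, cortical excitatory neurons and choroid plexus. Their part in the values of the members was not tested.

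The upstream sequences of the called genes are shown because factors of the NRF1, ETS and YY1 families are known regulators of this pathway, and Elk-1 is itself an ETS factor. RefSeq promoter sequences on GRCm38.p6, from 250 bases before to 50 after the start, were matched for 70 of 88 members, Cox6a1 and Ndufs7 among them. The 200 bases before each start are given 5′ to 3′ on the strand of the gene, with the NRF1 motif and the ETS letters CCGGAA or their reverse complement TTCCGG in capitals.
Cox6a1, chr5:115348959-115349158, minus strand: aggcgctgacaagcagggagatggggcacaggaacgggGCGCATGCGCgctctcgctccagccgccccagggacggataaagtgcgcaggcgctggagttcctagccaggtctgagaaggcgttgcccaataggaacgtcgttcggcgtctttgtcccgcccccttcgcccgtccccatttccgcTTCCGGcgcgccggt
Ndufs7, chr10:80249249-80249448, plus strand: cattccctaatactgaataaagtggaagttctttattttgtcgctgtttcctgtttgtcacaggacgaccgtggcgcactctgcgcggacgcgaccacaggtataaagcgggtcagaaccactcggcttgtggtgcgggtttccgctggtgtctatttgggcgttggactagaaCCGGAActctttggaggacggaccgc
In Cox6a1 the NRF1 motif begins 162 bases before the start and the ETS letters, on the opposite strand, 15 bases before it. In Ndufs7 the ETS letters begin 26 bases before the start.

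Searched on both strands, the NRF1 motif, the 10 palindromic letters in capitals in the Cox6a1 sequence, was found in 5 of the 70 promoters (7.14%), against 1.07% of all 27025 promoters and 2.20% of the 10125 whose gene is listed at 8 weeks. The ETS letters CCGGAA were found in 26 (37.1%), against 16.7% of all promoters and 28.4% of those listed. The YY1 letters AAGATGGC were found in 9 (12.9%), against 3.19% of all and 4.74% of those listed. The 5 promoters with the NRF1 motif belong to Atp5k, Cox6a1, Ndufa11, Ndufaf4 and Uqcrc1, and 30 bases around the letters are shown for 3 of them to show the flanks, again on the strand of the gene.
Atp5k, chr5:108434430-108434459, minus strand: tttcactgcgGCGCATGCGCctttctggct
Ndufa11, chr17:56717692-56717721, plus strand: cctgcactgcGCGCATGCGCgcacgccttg
Ndufaf4, chr4:24897960-24897989, plus strand: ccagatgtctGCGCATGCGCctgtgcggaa
The letters begin 50, 60 and 113 bases before the start in Atp5k, Ndufa11 and Ndufaf4. In CHL2 the members with the ETS letters had a median difference of -0.21 and those without them one of -0.21. The same comparison for NRF1 gave -0.21 with the motif and -0.20 without.

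R6/1 striatum at 4 weeks showed small differences in the same direction and no call. The authors' deposited table called 0 of 88 members, against 0.468% of all 14539 rows called and 0.193% called lower, and 1 member, Cox4i2, was lower at the unadjusted p of 0.05, where 2.1% of all rows were lower and 3.26% higher. Of the 88, 75 had lower pooled FPKM in R6/1 than in wild type (85.2%), against 49.5% of all rows. The median difference was -0.09. With equal FPKM sums 66 were lower and the median was -0.06, against 0.03 for all rows. Rows of the shortest length group had the same median of -0.09. The median of the members was -0.01 with that of rows of the same length taken off. With that of rows of the same length and level it was 0.01, so its direction was lost there. Both values used the longest transcript of each gene. With the median coding transcript as length, chosen after seeing the data, the median kept its direction when length was taken off. The medians of complexes I, IV and V were -0.09, -0.09 and -0.10, and that of complex III was -0.06. Complex II stood at 0.00, with 2 of its 4 genes lower. Ndufa4 had 395.4 FPKM in R6/1 and 418.1 FPKM in wild type, and Atp5e, the epsilon subunit of the ATP synthase, had 281 FPKM in R6/1 and 323 FPKM in wild type. Uqcrb, a ubiquinone-binding subunit of complex III with a near-identical pseudogene, had the highest difference at 0.24, with 11.7 FPKM in R6/1 and 9.78 FPKM in wild type, followed by Cox8b at 0.21 and Cox6a2 at 0.11. The lowest differences were -0.47 for Cox7b2, -0.42 for Cox4i2 and -0.24 for Atp5l, a small subunit of the ATP synthase with 16.7 FPKM in R6/1 and 19.99 FPKM in wild type.

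Markers of the projection neurons and of neighbouring regions moved in the 4-week pools as well. Of the 11 projection neuron markers, 2 were called lower, with a summed level of 2309 FPKM in R6/1 and 2938 FPKM in wild type. Of 5 hypothalamic markers 2 were called lower, Oxt and Trh (36.7 FPKM in R6/1, 95.8 FPKM in wild type), and of 4 thalamic markers 1 was called lower, Prkcd (20.02 FPKM in R6/1, 25.7 FPKM in wild type). Of 4 interneuron markers 1 was called higher, Erbb4 (75.8 FPKM in R6/1, 65.6 FPKM in wild type). What they contribute to the values of the members was not tested.

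At 8 weeks the pooled values of most members lay on the other side. The authors' deposited table again called 0 of 88 members, against 6.12% of all 14320 rows called and 5.34% called lower. At the unadjusted p of 0.05, 1 member, Cox8b, was lower, where 10.4% of all rows were lower and 3.86% higher. Of the 88, 63 had higher pooled FPKM in R6/1 than in wild type and 25 lower (28.4%), against 48.6% of all rows lower, and the median difference was 0.06. Scaled to the same FPKM sum, 80 were higher and 8 lower, with a median of 0.14. That scaling also moved the median of all rows, from 0.01 to 0.08. With length, or length and level, taken off, the median of the members was 0.03 and 0.03. Complexes I, II, III and V had medians of 0.08, 0.12, 0.10 and 0.07. Complex IV had -0.02, with 10 of its 18 members lower. When both groups were scaled to the same FPKM sum, complex IV stood at 0.07, beside 0.08 for all rows. Uqcrfs1, the Rieske iron-sulfur protein of complex III, had 103.2 FPKM in R6/1 and 88.0 FPKM in wild type, with q = 0.428 in the authors' deposited table. Atp5g1, 1 of 3 genes for subunit c of the ATP synthase, had 27.6 FPKM in R6/1 and 21.9 FPKM in wild type (q = 0.404 in the authors' deposited table). Sdha had 189.4 FPKM in R6/1 and 173.2 FPKM in wild type. Atp5k, subunit e of the ATP synthase, had 94.8 FPKM in R6/1 and 113 FPKM in wild type. The highest differences were 0.39 for Cox7b2, with 0.881 FPKM in R6/1 and 0.432 FPKM in wild type, 0.32 for Atp5g1 and 0.23 for Uqcrfs1. The lowest were -1.09 for Cox8b, -0.40 for Uqcrb and -0.37 for Cox6a2. At this age 10 of 11 projection neuron markers were called lower, with a summed level of 1306 FPKM in R6/1 and 3370 FPKM in wild type, and 4 of 6 markers of choroid plexus and ependyma were called lower, at 581.5 FPKM in R6/1 and 1501 FPKM in wild type. Of 5 markers of cortical excitatory neurons, 4 were called lower (196.5 FPKM in R6/1, 312.8 FPKM in wild type). Single markers called were Pthlh of interneurons, lower, and Acta2 of smooth muscle, Slc17a6 of thalamus and Avp of hypothalamus, all higher. Their part in the values of the members was not tested.

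**Figure D3:**
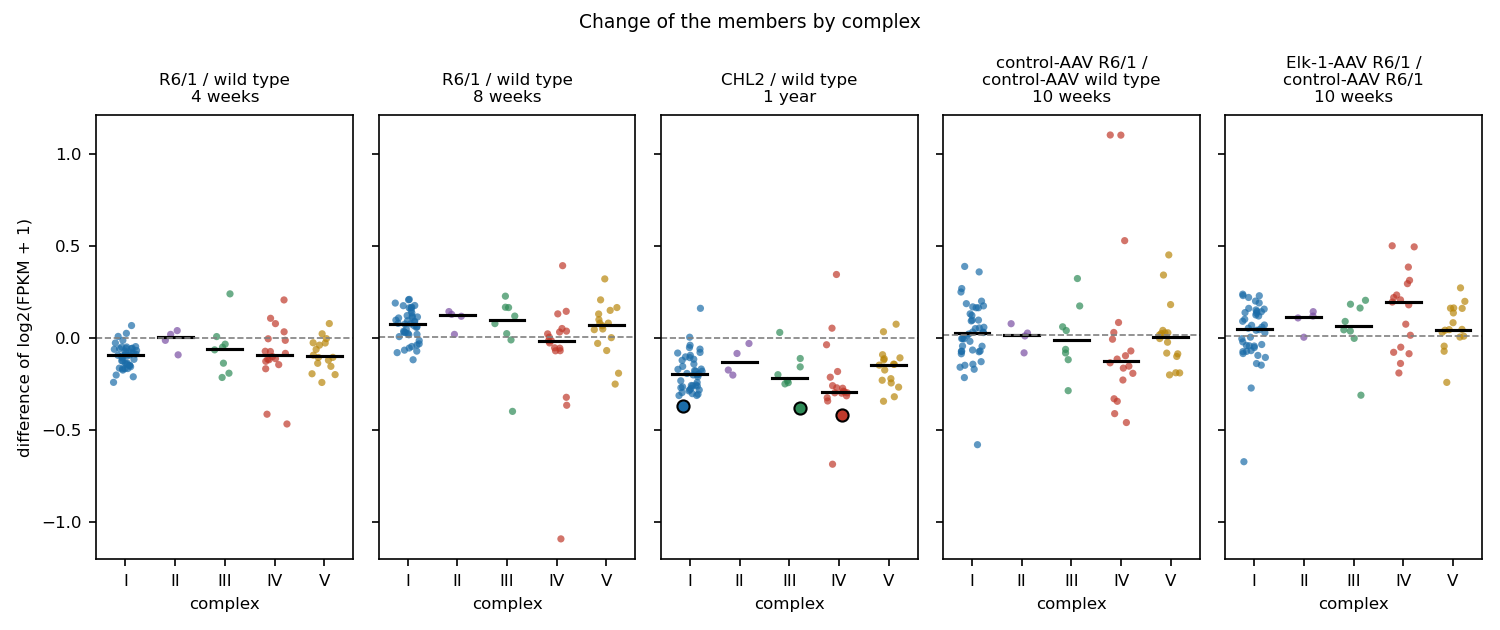
Difference of log2(FPKM + 1) (vertical axis) of each member by complex in the 5 comparisons, each R6/1, CHL2 or Elk-1-AAV group minus its control; black lines mark the median of a complex, the dashed line the median of all rows, and ringed points the 3 members called in CHL2. The complex medians run from -0.10 to 0.00 at 4 weeks, from -0.02 to 0.12 at 8 weeks and from -0.29 to -0.13 in CHL2.

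The 10-week tables were set apart by the levels themselves. Control-AAV wild type had a median of 1.88 times the FPKM of wild type at 8 weeks over the members and 1.07 times over all rows above 1 FPKM. These tables were normalised separately and no age-matched group without AAV was analysed here, so levels were compared only within a table. The control-AAV R6/1 pool stands in both 10-week tables, with values that differ by a constant 1.02-fold over the members, and the 2 comparisons share its 2 libraries.

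In control-AAV R6/1 against control-AAV wild type, 0 of 88 members were called in the authors' deposited table, against 3.24% of all 12980 rows called and 2.51% called lower. At the unadjusted p of 0.05, 1 member, Cox6b2, was higher, where 3.88% of all rows were higher and 6.8% lower. With 45 lower (51.1%) and 43 higher, against 47.6% of all rows lower, the members had a median difference of -0.0033, against 0.01 for all rows. With equal FPKM sums 35 were lower and 53 higher, with a median of 0.06, against 0.07 for all rows. With length, or length and level, taken off, the median of the members was -0.04 and -0.02. Complex IV had a median of -0.13, with 13 of 18 members lower, and the other complexes had medians from -0.01 to 0.03, with complex III at 0.05 under equal sums. Cox6c had 368.7 FPKM in control-AAV R6/1 and 432.4 FPKM in control-AAV wild type. Cox4i1 had 1421 FPKM in control-AAV R6/1 and 1392 FPKM in control-AAV wild type. Ndufb4, an accessory subunit of complex I with a near-identical pseudogene, had the lowest difference at -0.58, with 35.1 FPKM in control-AAV R6/1 and 52.9 FPKM in control-AAV wild type, followed by Cox4i2 at -0.46 and Cox7b2 at -0.41. The highest were 1.10 for Cox8b, 1.10 for Cox6b2 and 0.53 for Cox7c, which has near-identical pseudogenes and had 35.6 FPKM in control-AAV R6/1 and 24.4 FPKM in control-AAV wild type. In these pools 9 of 11 projection neuron markers were called lower (1174 FPKM in control-AAV R6/1, 2544 FPKM in control-AAV wild type), and so were 4 of 5 markers of cortical excitatory neurons (310.4 FPKM in control-AAV R6/1, 587.1 FPKM in control-AAV wild type). In the other direction, 4 of 5 hypothalamic markers were called higher (424.9 FPKM in control-AAV R6/1, 61.1 FPKM in control-AAV wild type), 3 of 3 thalamic markers were called higher (46.5 FPKM in control-AAV R6/1, 16.8 FPKM in control-AAV wild type) and 4 of 6 choroid plexus and ependyma markers were called higher (1580 FPKM in control-AAV R6/1, 343.5 FPKM in control-AAV wild type). What these markers contribute to the complex IV values was not tested.

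In Elk-1-AAV R6/1 against control-AAV R6/1, 0 of 87 members were called in the authors' deposited table, against 0.575% of all 12701 rows called and 0.276% called lower, and 0 passed at the unadjusted p of 0.05, where 2.3% of all rows were lower and 2.61% higher. Cox7b2 is not listed there. Pooled FPKM was higher in Elk-1-AAV R6/1 for 60 of 87 members and lower for 27 (31.0%), against 47.1% of all rows lower. The median difference was 0.07, against 0.01 for all rows and 0.08 for the 787 other rows with a mean of at least 100 FPKM. With equal FPKM sums, pooled FPKM was higher for 45 of 87 members, and the median was 0.01, against -0.04 for all rows. With length, or length and level, taken off, the median of the members was 0.02 and 0.01. Complex IV had the highest median, 0.20, with 12 of 17 members higher, and the other complexes had medians from 0.05 to 0.11, of which complexes I and V stood at -0.01 and -0.01 with equal sums. Cox6a1 had 1396 FPKM in Elk-1-AAV R6/1 and 1123 FPKM in control-AAV R6/1, with p = 0.0675 and q = 0.999 in the authors' deposited table. Cox5b, a zinc-binding subunit of complex IV, had 125.8 FPKM in Elk-1-AAV R6/1 and 102.3 FPKM in control-AAV R6/1. Ndufa4 had 731.1 FPKM in Elk-1-AAV R6/1 and 775.6 FPKM in control-AAV R6/1. The highest differences were 0.50 for Cox7c, with 52.1 FPKM in Elk-1-AAV R6/1 and 36.5 FPKM in control-AAV R6/1, 0.50 for Cox6a2 and 0.39 for Cox7a1, with 14.7 FPKM in Elk-1-AAV R6/1 and 11.02 FPKM in control-AAV R6/1. The lowest were -0.67 for Ndufab1, with 3.44 FPKM in Elk-1-AAV R6/1 and 6.08 FPKM in control-AAV R6/1, -0.31 for Uqcrb, with 15.8 FPKM in Elk-1-AAV R6/1 and 19.8 FPKM in control-AAV R6/1, and -0.27 for Ndufa4l2. Members whose promoter holds the ETS letters had a median of 0.10, with 23 of 26 higher, and those without them had 0.03, with 25 of 43 higher. Over all rows with a promoter, the medians were 0.01 with the ETS letters and 0.01 without. The other motifs split the members in the same direction. For NRF1 the medians were 0.15 with the motif and 0.06 without, with 3 of 5 and 45 of 64 higher. For YY1 they were 0.09 and 0.06, with 7 of 9 and 41 of 60 higher. These counts use the values as deposited, without rescaling, and the difference by motif was not tested. Of 11 projection neuron markers 0 were called and 0 were lower, with a summed level of 1445 FPKM in Elk-1-AAV R6/1 and 1202 FPKM in control-AAV R6/1. The 5 markers of cortical excitatory neurons also had 0 called and 0 lower (409.9 FPKM in Elk-1-AAV R6/1, 317.6 FPKM in control-AAV R6/1). Hypothalamic markers summed to 29.3 FPKM in Elk-1-AAV R6/1 and 435.1 FPKM in control-AAV R6/1, with 3 of 5 called lower. The 3 thalamic markers, Prkcd, Slc17a6 and Tcf7l2, were called lower as well, at 15.7 FPKM in Elk-1-AAV R6/1 and 47.6 FPKM in control-AAV R6/1. Of 6 microglial markers 2 were called higher, C1qa and C1qb (326.7 FPKM in Elk-1-AAV R6/1, 201.6 FPKM in control-AAV R6/1), and of 6 choroid plexus and ependyma markers 1 was called higher, Kl (2297 FPKM in Elk-1-AAV R6/1, 1618 FPKM in control-AAV R6/1). Their part in the values of the members was not tested.

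Isoforms restricted to certain tissues made up 7 members, 6 of them in complex IV. Cox8b, the heart and muscle isoform of subunit 8, had 2.06 FPKM in R6/1 and 5.54 FPKM in wild type at 8 weeks, a log2 fold change of -1.42 with p = 0.0174 and q = 0.180 in the authors' deposited table. It had 4.61 FPKM in CHL2 and 8.03 FPKM in wild type, and in the other direction 7.97 FPKM in control-AAV R6/1 and 3.17 FPKM in control-AAV wild type, and 2.94 FPKM in R6/1 and 2.42 FPKM in wild type at 4 weeks. Its direction therefore differed between tables, and it passed the adjusted threshold in none.

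Cox6b2, the testis isoform of subunit 6B, had 18.9 FPKM in control-AAV R6/1 and 8.25 FPKM in control-AAV wild type, with p = 0.0308 and q = 0.364 in the authors' deposited table. It had 6.93 FPKM in CHL2 and 5.24 FPKM in wild type, and 3.44 FPKM in R6/1 and 3.37 FPKM in wild type at 8 weeks. As deposited, it was the 1 member with higher pooled FPKM in all 4 comparisons with wild type. Cox4i2, the isoform of subunit 4 known from lung and from low oxygen, was lower in all 4, with 1.87 FPKM in R6/1 and 2.83 FPKM in wild type at 4 weeks and 2.01 FPKM in R6/1 and 2.77 FPKM in wild type at 8 weeks. It had 2.98 FPKM in CHL2 and 3.88 FPKM in wild type, and 3.48 FPKM in control-AAV R6/1 and 5.17 FPKM in control-AAV wild type. At 4 weeks its unadjusted p was 0.0456 with q = 0.907 in the authors' deposited table.

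Cox6a2, the heart and muscle isoform of subunit 6A, had 6.88 FPKM in R6/1 and 9.17 FPKM in wild type at 8 weeks, and 7.85 FPKM in CHL2 and 10.0 FPKM in wild type. At 4 weeks Cox6a2 had 8.84 FPKM in R6/1 and 8.14 FPKM in wild type. With Elk-1 it had 9.49 FPKM in Elk-1-AAV R6/1 and 6.44 FPKM in control-AAV R6/1 (log2 change 0.56 and q = 0.999 in the authors' deposited table). Cox7a1, the heart and muscle isoform of subunit 7A, had 5.51 FPKM in CHL2 and 7.16 FPKM in wild type. Ndufa4l2, known from hypoxic cells and pericytes, stayed between 1.82 and 3.38 FPKM over all pools, and Cox7b2, a testis isoform, between 0.432 and 1.87 FPKM. All 7 lay below 20 FPKM in every pool.

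**Figure D4:**
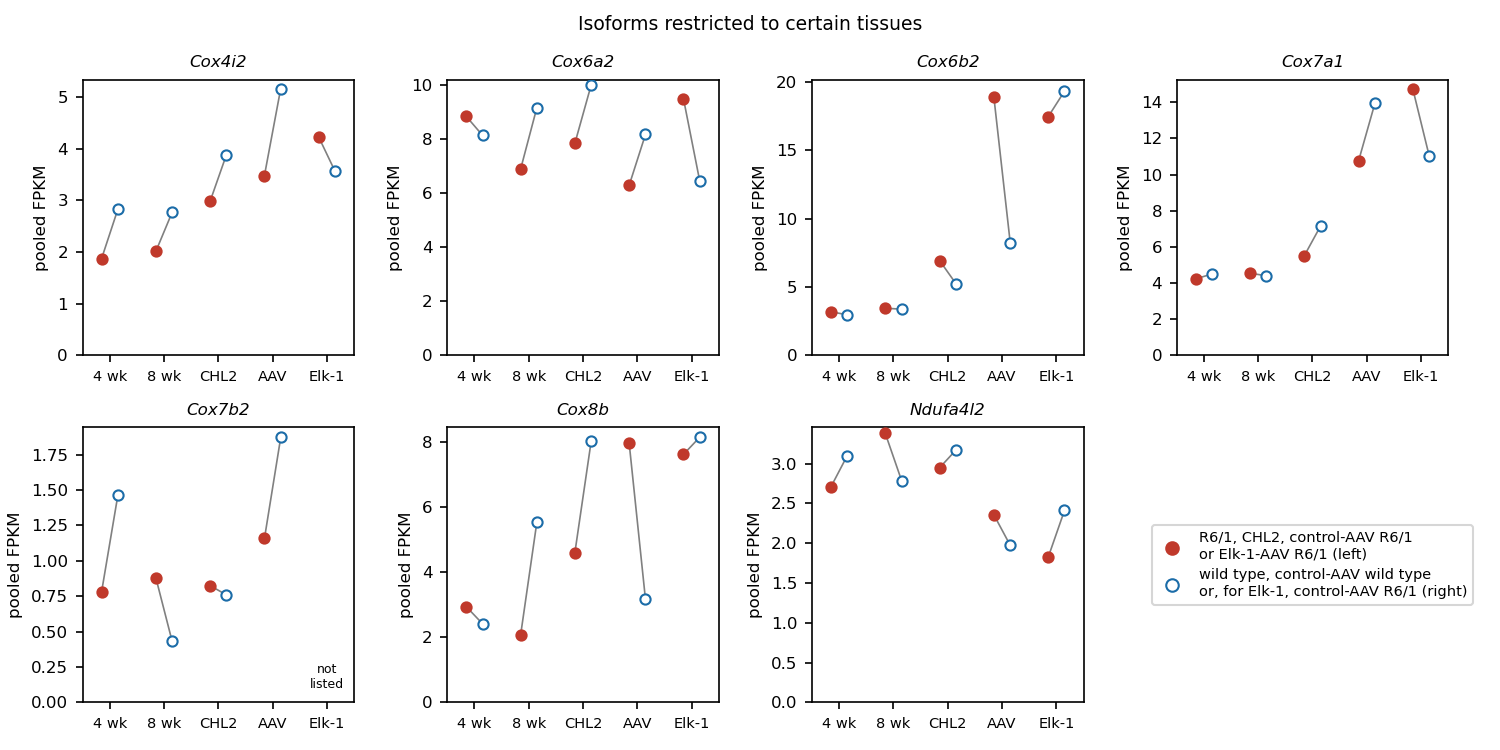
Pooled FPKM (vertical axis, from 0) of the 7 isoforms restricted to certain tissues in each comparison; filled points on the left of each pair are R6/1, CHL2, control-AAV R6/1 or Elk-1-AAV R6/1, open points on the right their controls. Cox4i2 is lower on the left in 4 of 5 comparisons, and Cox8b changes side between 8 weeks and the 10-week AAV comparison.

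In the values as deposited, without rescaling, 72 of 88 members were lower than wild type both at 4 weeks and in CHL2, and 50 of these 72 were higher at 8 weeks. Taken singly, 75 of 88 were lower at 4 weeks and 81 in CHL2, and 63 were higher at 8 weeks. Of all rows, 49.5% were lower at 4 weeks, 49.5% in CHL2, 48.6% at 8 weeks and 47.6% in control-AAV R6/1. Members lower in all 4 comparisons with wild type numbered 11, namely Atp5j, Cox4i2, Cox5b, Cox6c, Cox7a2l, Cox8a, Ndufa1, Ndufa4, Ndufb10, Ndufs3 and Ndufs4. Taken singly, 25 of 88 members were lower at 8 weeks and 45 in control-AAV R6/1. The shares of all rows with such overlaps were not computed. These overlap counts are therefore not read as shared behaviour of single genes or of a complex. Cox8a, Cox6c, Cox5b and Cox4i2 belong to complex IV as subunits, and so does the protein of Ndufa4, which is counted here under complex I by its symbol. Cox7a2l encodes a factor that joins complexes III and IV into supercomplexes. The ordering of members in CHL2 went with that at 8 weeks, with Pearson r = 0.58 and Spearman rho = 0.57 over the 88 members, although the 2 medians differ in sign. Between CHL2 and 4 weeks the values were r = 0.13 and rho = 0.38, and between 8 and 4 weeks r = -0.25 and rho = 0.17. These coefficients describe pooled values of genes, which share libraries within a comparison and are not independent. Within the members, change also went with transcript length, at a Spearman's correlation of 0.31 at 8 weeks, 0.39 in CHL2 and 0.19 at 4 weeks. The part of length in the shared ordering was not tested. A difference beyond 0.5 in either direction in any comparison was seen for 5 members, Cox6b2, Cox7c, Cox8b, Ndufab1 and Ndufb4. Of those, 2 are tissue-restricted isoforms, and the other 3 have near-identical pseudogenes. This list depends on the 1 added to FPKM. By the deposited log2 fold change, 3 more tissue-restricted isoforms passed 0.5 in size. They were Cox7b2, at 1.03 at 8 weeks, Cox4i2, at -0.60 at 4 weeks, and Cox6a2, at 0.56 with Elk-1. Among all rows with a mean of at least 100 FPKM, the smallest log2 fold change that was called in the authors' deposited tables had a size of 0.47 at 4 weeks, 0.37 at 8 weeks, 0.36 in CHL2, 0.57 in the control-AAV comparison and 0.65 with Elk-1. Outside CHL2, every member of that level had a difference below the size given for its table.

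Most members have short transcripts, and in some tables the change of all rows went with transcript length. Median length, by the longest transcript of each gene, was 1135 bases for the members and 3400 bases for all rows of the CHL2 table. With the rows split into 10 groups of equal size by length, 51 members fell in the shortest group, or 52 in the 8-week table. Over all rows, Spearman's correlation of change with length was 0.48 at 4 weeks, -0.11 at 8 weeks, 0.39 in CHL2, -0.06 in the control-AAV comparison and -0.18 with Elk-1. Over the members alone the values were 0.19, 0.31, 0.39, -3.5e-05 and -0.17 in the same order. At 4 weeks the shortest length group had a median of -0.09 and the members within it one of -0.11. In CHL2 the shortest length group had -0.13 and its members -0.26, with 42 of 51 below the median of that group.

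With the median of rows of the same length group taken off, the median difference of the members was -0.01 at 4 weeks, 0.03 at 8 weeks, -0.11 in CHL2, -0.04 in the control-AAV comparison and 0.02 with Elk-1. The members then lay below rows of their own length in 53 of 88 cases at 4 weeks and in 74 of 88 in CHL2. Complex IV in CHL2 stood at -0.16 by this measure, complex I at -0.12, complex III at -0.10, complex V at -0.08 and complex II at -0.04. Cox6a1, Uqcrq and Ndufs7 stood at -0.29, -0.30 and -0.24. Taking off rows of the same length and level moved the median in CHL2 to -0.07 and at 4 weeks to 0.01. The part of transcript length, RNA quality or library preparation in these values was not tested, and no measure of RNA quality was analysed here.

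**Figure D5:**
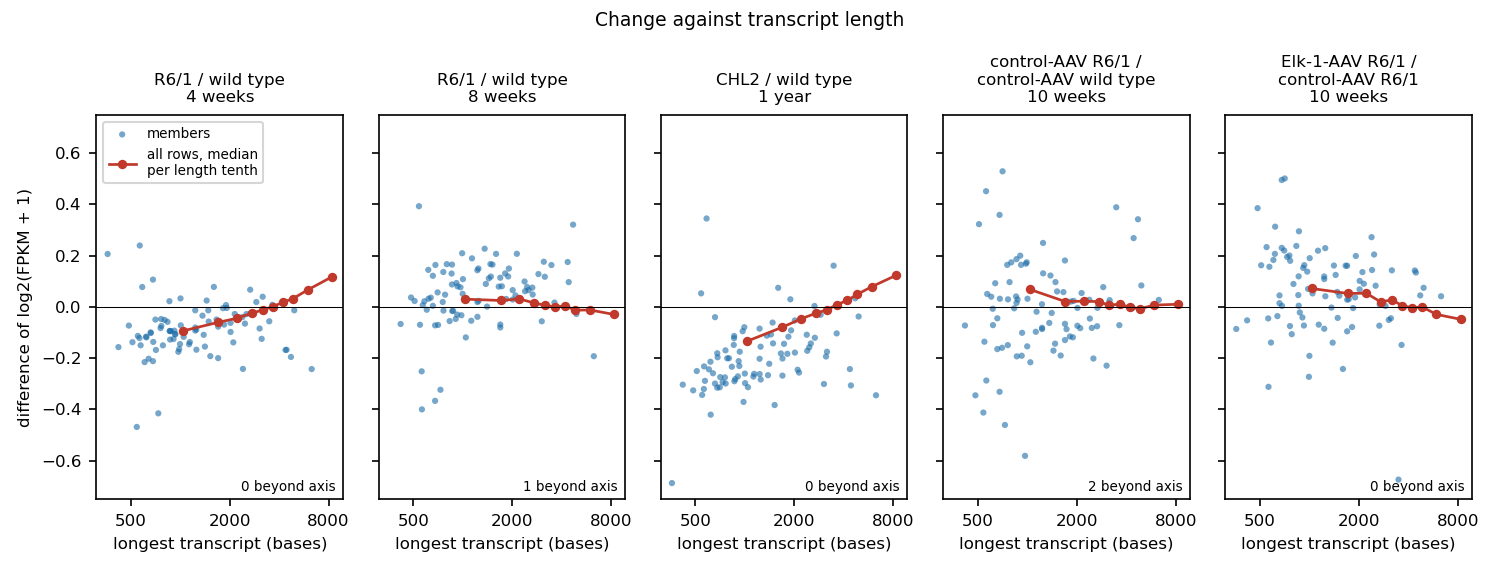
Difference of log2(FPKM + 1) (vertical axis) against the longest annotated transcript of a gene in bases (horizontal log axis) in the 5 comparisons; blue points are members, red points the medians of all rows in 10 length groups. In CHL2 the red points run from -0.13 in the shortest group to 0.12 in the longest, and most members lie below it.

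Other mitochondrial gene lists carried few calls. Of 16 genes of electron carriers outside the symbol rule, Gpd2, the mitochondrial glycerol-3-phosphate dehydrogenase, rose in CHL2, at 24.4 FPKM against 18.9 FPKM in wild type (log2 change 0.37 and q = 0.0386 in the authors' deposited table). Cyc1, the cytochrome c1 subunit of complex III that the symbol rule misses, had 165.6 FPKM in CHL2 and 176.4 FPKM in wild type. Among regulators of mitochondrial biogenesis, Ppargc1b, a coactivator of this programme, fell in R6/1 at 8 weeks, at 3.82 FPKM against 5.55 FPKM in wild type (log2 change -0.54 and q = 0.0392 in the authors' deposited table). Its relative Ppargc1a had 10.9 FPKM in R6/1 and 9.83 FPKM in wild type at 8 weeks, and 10.6 FPKM in CHL2 and 10.4 FPKM in wild type. Tfam, which packages and transcribes mitochondrial DNA, had 10.9 FPKM in CHL2 and 10.5 FPKM in wild type, and Nrf1 had 6.65 FPKM in CHL2 and 6.85 FPKM in wild type. No gene of the tricarboxylic acid cycle, glycolysis, complex assembly, mitochondrial import or mitochondrial ribosome lists had the authors' q below 0.05 in any of the 5 comparisons. At the unadjusted p of 0.05, over all 5 comparisons in either direction, the authors' deposited tables have 0 results for the tricarboxylic acid cycle, 1 for glycolysis, 2 for assembly, 4 for import and 4 for the mitochondrial ribosome.

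In CHL2 the median difference was -0.11 for 76 mitochondrial ribosomal proteins, -0.10 for 17 import genes, -0.09 for 17 glycolysis genes, -0.04 for 17 genes of the tricarboxylic acid cycle, -0.04 for 16 electron carriers, -0.01 for 27 assembly factors outside the symbol rule and 0.02 for 17 regulators of biogenesis, beside -0.20 for the members. With the median of the length group taken off, the ribosomal proteins stood at -0.05 and the tricarboxylic acid cycle at 0.00, beside -0.11 for the members. At 8 weeks the tricarboxylic acid cycle had a median of 0.11, assembly factors 0.13, electron carriers 0.13 and mitochondrial ribosomal proteins 0.07, beside 0.06 for the members, while glycolysis stood at 0.02, mitochondrial import at 0.02 and the regulators of biogenesis at 0.01. Differences between these lists and the members were not tested.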

How the data were processed

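Total RNA from striatum was sequenced after TruSeq preparation, per the labels' protocols, in 26 libraries of 9 groups. The tools were Cuffdiff, Cufflinks, TopHat and Bowtie with the mm9 genome, per the submitters' processing notes, which name no versions. For strandedness and annotation, the processing is not given in the sources used here. Deposited by the authors were 5 tables with 1 pooled FPKM per group and gene, the deposited log2 fold change of these values, and a p-value and q-value, of which the lowest p-value is 5e-05. Per-library values were not analysed here, so depth is unknown and no count test, limma fit or interval was possible. The labels do not say that replicate libraries are separate animals, so the deposited p-values may reflect technical spread alone. The planned limma fit was conditional on per-library values, and the authors' deposited q-value stands in its place.

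The members and gene lists were chosen with earlier results of these data known. Any member could be named. Values were given for called members, for the 2 highest and 2 lowest levels per complex in wild type at 8 weeks, for the 3 highest and 3 lowest differences per comparison, in that comparison, and for tissue-restricted isoforms. Genes of the other mitochondrial lists were given when called, plus Ppargc1a, Tfam and Nrf1, and cell type markers as counts and summed levels. Cyc1 and members named as examples of a complex were chosen after their values were seen. Differences of log2(FPKM + 1) used rows with a mean FPKM of at least 0.5, which all members passed. This added 1 makes the change of a low gene look smaller. Transcript lengths are the longest per symbol in GENCODE M21, found for all 88 members, and rows were split into 10 length groups and 5 level groups. The length correction was tested only on permuted 8-week changes with a known slope of length and a known shift in short genes. It was not tested for the high level of the members or for errors in transcript length. Pseudogene copies were found with blastn 2.17.0 in GENCODE M21 transcripts, without regard to genome build. Promoters are from RefSeq on GRCm38.p6, a different build from the listed mm9 positions. Of the members, 8 have the listed position of a second gene, and both may draw on the same reads. Whether listed starts count from 0 or 1 is not stated. Alternatives changed the pseudocount, the filter, the scaling, the threshold, the member list and the correction for length. Python 3.11.15, pandas 2.3.3 and scipy 1.17.1 were used.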

Additional observations from a re-analysis of the deposited data

How the results depend on the processing

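Of 100 alternatives run on the counts of called members and on the median differences, 80 stayed within 1.5 times the reported value with its sign, or moved by less than 0.02, and 20 did not. Part of the 80 was fixed in advance, since leaving out members cannot change a count where no member was called. The 80 is therefore no measure of how stable the medians are. Among 593 run on complexes and single genes, 158 moved by more. No called value changed sign. With the authors' unadjusted p below 0.05 in place of q, the members lower were 1 at 4 weeks, 1 at 8 weeks and 28 in CHL2, and 1 was higher in control-AAV R6/1. In a further alternative each group was scaled to an equal FPKM sum. The median difference was -0.058 at 4 weeks, 0.14 at 8 weeks, -0.12 in CHL2, 0.061 in control-AAV R6/1 and 0.013 with Elk-1. That of all rows was 0.031, 0.076, 0.072, 0.072 and -0.038 in the same order. Taking off the median of the length group gave -0.010, 0.032, -0.11, -0.042 and 0.018 in the same comparisons. Taking off that of the length and level group gave 0.0061 at 4 weeks, 0.026 at 8 weeks, -0.071 in CHL2, -0.018 in control-AAV R6/1 and 0.012 with Elk-1. With the median coding transcript as length, chosen after seeing the data, the values were -0.044 at 4 weeks and 0.027 with Elk-1. This length was used for the other comparisons as well, and their values are not given here. The sign of the median thus changed at 4 weeks with length and level taken off, and in control-AAV R6/1 with equal sums. The cause was not tested. No paired analysis was possible because the tables hold 1 pooled value per group, and leave-one-out fits were not run for the same reason. The depth behind low genes is unknown, which limits what can be said of the tissue-restricted isoforms.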
